A study of Mus musculus with 12 samples.

Results

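The integrin and laminin chains of the mouse kidney were followed across 4 groups of kidneys. They were taken by gene symbol, as integrin alpha chains, integrin beta chains and laminin alpha, beta or gamma chains that the files name, by a rule that uses no measured value but was set with earlier results of these data known. The chains described are 36 of 24421 genes, namely 18 integrin alpha chains, 8 integrin beta chains and 10 laminin chains. Of these, 26 reached a mean of 1 FPKM (fragments scaled to the length of the transcript and the size of the library) in at least 1 group, and 10 did not.

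An integrin is a receptor made of an alpha and a beta chain that span the cell membrane together, binding matrix proteins or proteins on other cells outside and the actin or keratin cytoskeleton inside. A laminin is a cross-shaped trimer of an alpha, a beta and a gamma chain, secreted into the basement membrane on which the tubular epithelium, the glomerular cells and the vessels rest. In the kidney, integrins hold tubular cells and podocytes to that sheet, while a separate set of integrins, most of them built on the β2 chain Itgb2, lets leukocytes leave the blood.

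RNA was sequenced from kidneys of male C57BL/6 mice at 6 weeks old, 3 kidneys in each of 4 groups. The sources used here do not say which part of each kidney was taken. The WT baseline and Tet2-/- baseline mice had no operation. The WT IR and Tet2-/- IR mice underwent ischemia-reperfusion, in which the right renal pedicle was clamped for 60 min, the left kidney was removed and the right kidney was collected after 24 h. The Tet2-/- mice came from Tet2+/- breeding pairs, on C57BL/6J by the study's methods, so the lesion was not limited to the kidney. An IR effect here therefore contains the surgery and the loss of the other kidney.

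The members together took 0.118% to 0.169% of the counts in the baseline libraries, 0.158% to 0.21% after IR in WT and 0.212% to 0.304% after IR in the Tet2-/- labelled kidneys. Total counts ran from 51007366 to 107969888 per library. The Tet2 mRNA did not follow the genotype labels at baseline: it was 9.15, 6.25 and 7.33 FPKM in the WT libraries and 9.25, 16.6 and 10.3 FPKM in those labelled Tet2-/-. After IR it was 9.34, 3.97 and 3.86 FPKM in WT and 2.64, 3.20 and 1.76 FPKM in the labelled Tet2-/- libraries, and neither difference passed edgeR's adjusted p (0.321 and 0.0690). With IR, Tet2 fell by 2.52 on the log2 scale in the labelled Tet2-/- kidneys (adjusted p = 0.000519) and differed by -0.48 in WT (adjusted p = 0.440), and the interaction of -2.001 passed (adjusted p = 0.0285). The sources used here do not say which exons the allele lacks, so Tet2-/- stands for the label throughout, whether or not the word labelled is repeated.

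Kidney tissue was present in every library, since 5 proximal tubule markers summed to between 406.9 and 2268 FPKM and none was at 0. Several libraries stood apart in other cell types. WT IR replicate 3 was lowest of the 12 in summed podocyte (3.10 FPKM), endothelial (3.16 FPKM) and stromal (4.68 FPKM) markers, 4 genes each. Tet2-/- IR replicate 2 was highest in the 8 macrophage markers, at 190.5 FPKM against 50.3 and 29.7 FPKM in the other Tet2-/- IR libraries. WT baseline replicates 2 and 3 held 7.89 and 33.7 FPKM of 5 adipocyte markers, against 0.676 FPKM in replicate 1 and at most 0.727 FPKM in the baseline libraries labelled Tet2-/-, where the marker Lep was at 0. Tet2-/- IR replicate 3 held the most of the 12, at 48.3 FPKM, against 7.79 and 2.48 FPKM in the other Tet2-/- IR libraries.

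**Figure D1:**
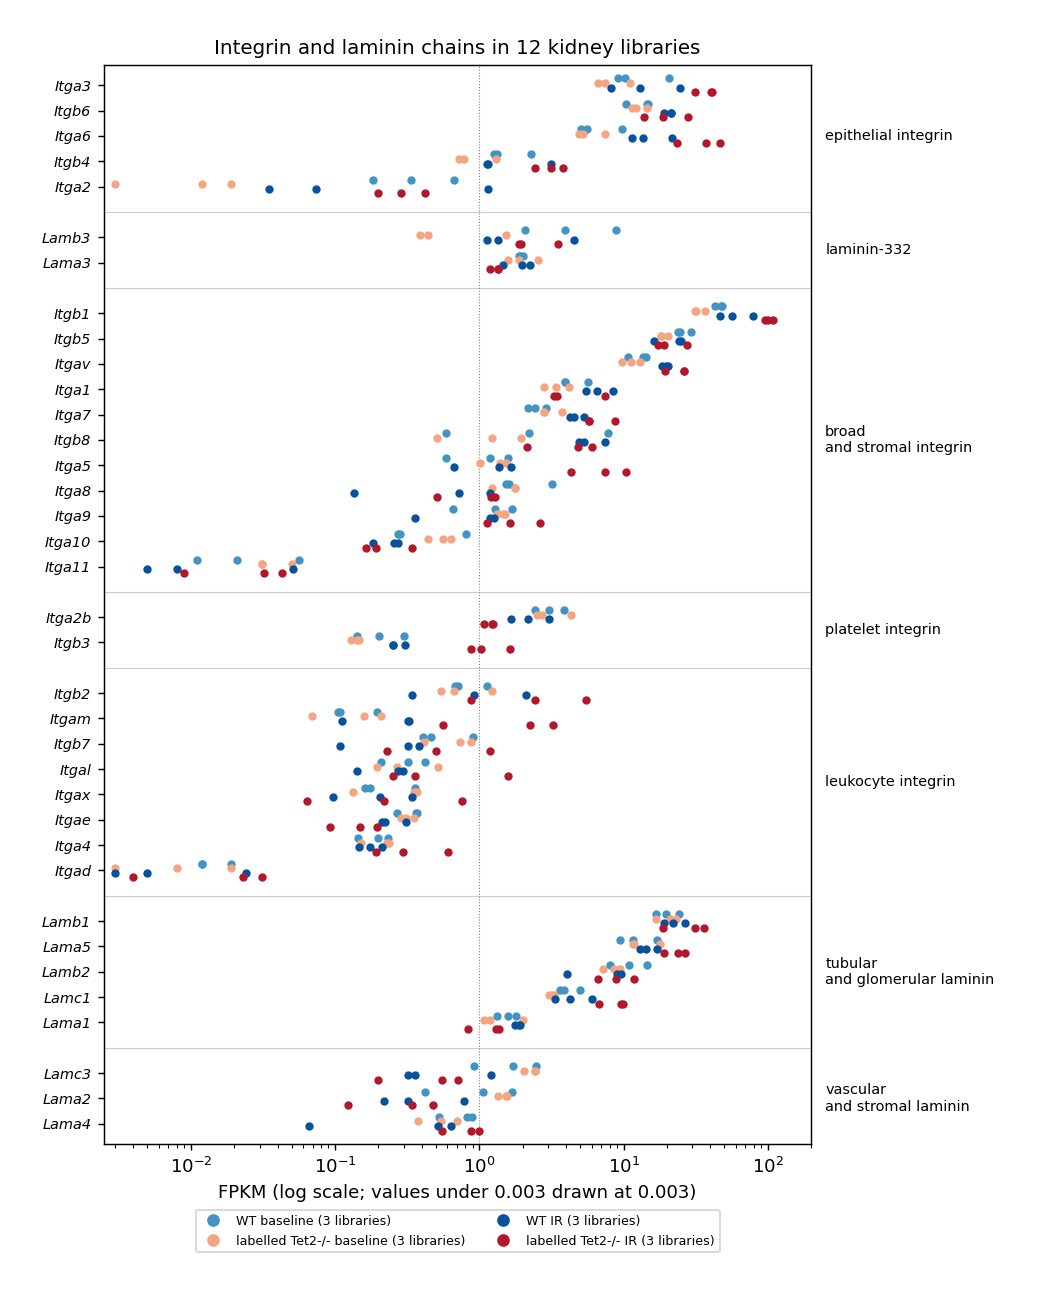
Level of each integrin and laminin chain in each of the 12 libraries, on a log10 axis of FPKM, with chains grouped by class and 1 point per library coloured by group. Itgb1 lies above every other chain, most leukocyte chains lie under 1 FPKM, and the Tet2-/- labelled IR points lie to the right for Itgb1, Itga3 and Itga6.

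Itgb1, the β1 chain shared by most matrix-binding integrins, was the most abundant member in unoperated WT kidneys, at 46.1 ± 2.58 FPKM (SD, n = 3). Itgb5 (25.9 ± 2.88 FPKM) and the laminin chain Lamb1 (20.2 ± 3.69 FPKM) came next. These 3 did not overlap except for Lamb1 with Itgb5, whose lowest library (23.8 FPKM) lay under the highest of Lamb1 (24.1 FPKM). Below them Itga3 (13.4 ± 6.41 FPKM), Itgb6 (13.2 ± 2.47 FPKM), Itgav (12.9 ± 1.84 FPKM) and Lama5 (12.7 ± 3.95 FPKM) could not be ordered beyond their spread. At the other end, Itgad (0.0143 FPKM) and Itga11 (0.0293 FPKM) were hardly detected. Itgad had 0.5 to 15.5 counts per library and was tested in no comparison, and Itga11 was not tested in the WT pair of groups.

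The promoters of the β1 chain, of its fibronectin-binding partner Itga5 and of the platelet chain Itga2b are shown because Itgb1 and Itga5 rose and Itga2b fell after IR in the Tet2-/- labelled kidneys. Each is the 250 bases before the RefSeq start on GRCm38.p6, read 5′ to 3′ on the gene's strand, with each GGGCGG, or its reverse complement CCGCCC, in capitals. They lie at chr15:103366792-103367041 (minus strand, Itga5), chr8:128685404-128685653 (plus strand, Itgb1) and chr11:102469884-102470133 (minus strand, Itga2b).
Itga5: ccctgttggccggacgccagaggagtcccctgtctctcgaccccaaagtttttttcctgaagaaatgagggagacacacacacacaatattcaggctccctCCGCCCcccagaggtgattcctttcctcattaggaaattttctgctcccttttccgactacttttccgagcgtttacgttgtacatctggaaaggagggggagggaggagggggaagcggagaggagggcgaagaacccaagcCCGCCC
Itgb1: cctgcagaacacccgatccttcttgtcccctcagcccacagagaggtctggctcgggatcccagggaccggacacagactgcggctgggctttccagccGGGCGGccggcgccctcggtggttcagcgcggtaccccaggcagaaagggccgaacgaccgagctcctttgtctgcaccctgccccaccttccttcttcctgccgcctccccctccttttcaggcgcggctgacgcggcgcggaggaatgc
Itga2b: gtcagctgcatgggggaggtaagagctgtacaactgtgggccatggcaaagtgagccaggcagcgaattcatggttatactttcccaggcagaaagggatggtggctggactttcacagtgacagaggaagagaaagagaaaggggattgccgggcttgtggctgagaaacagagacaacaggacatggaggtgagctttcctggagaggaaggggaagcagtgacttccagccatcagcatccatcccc
The letters GGGCGG, counted on both strands, stood 149 and 6 bases before the Itga5 start, 151 bases before the Itgb1 start and nowhere in the Itga2b window. They were in 32.7% of 32851 such windows, and in those of 8 of the 23 members with an entry. Searched in the same way, CACCTG was in 17.2% of windows and in 8 members, and TGANTCA was in 6.75% of windows and in 1 member, Itgax. None of these 3 motifs contains another.

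IR in the Tet2-/- labelled kidneys moved many of these genes. Of 35 chains tested, 12 rose and 6 fell at an adjusted p under 0.05 in edgeR's quasi-likelihood test, which is 51.4% of them against 43.1% of all 16359 genes (22.9% higher and 20.3% lower). With a log2 fold change over 1 or under -1 as well, 15 of 35 were called, 10 higher and 5 lower, a share of 42.9% against 24.3% of all genes (12.7% higher and 11.6% lower). The FPKM of the groups did not overlap in 14 chains that were higher and 6 that were lower, against 40.5% and 17.9% of genes. In WT kidneys IR raised 1 of 34 chains tested, Itga7, and none was called, against 3.02% of 16015 genes at the adjusted p alone (1.88% higher and 1.14% lower) and 2.35% called (1.46% higher and 0.887% lower). Without overlap were 4 chains that were higher and 2 that were lower, where 18.9% and 10.4% of genes were. At an unadjusted p under 0.05 the WT comparison held 8 of the 34 chains and 3640 of the 16015 genes, and DESeq2 called 3 chains. The difference between these effects was itself tested as the genotype by IR interaction, which 4 of 35 chains passed, each with a more positive change in the Tet2-/- labelled kidneys (11.4%, against 9.18% of 16741 genes, 3.79% positive and 5.39% negative). With the replicate number as a block within each genotype, an alternative added after the data were seen, 9 of 35 chains passed, all positive, and 12.6% of all genes.

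**Figure D2:**
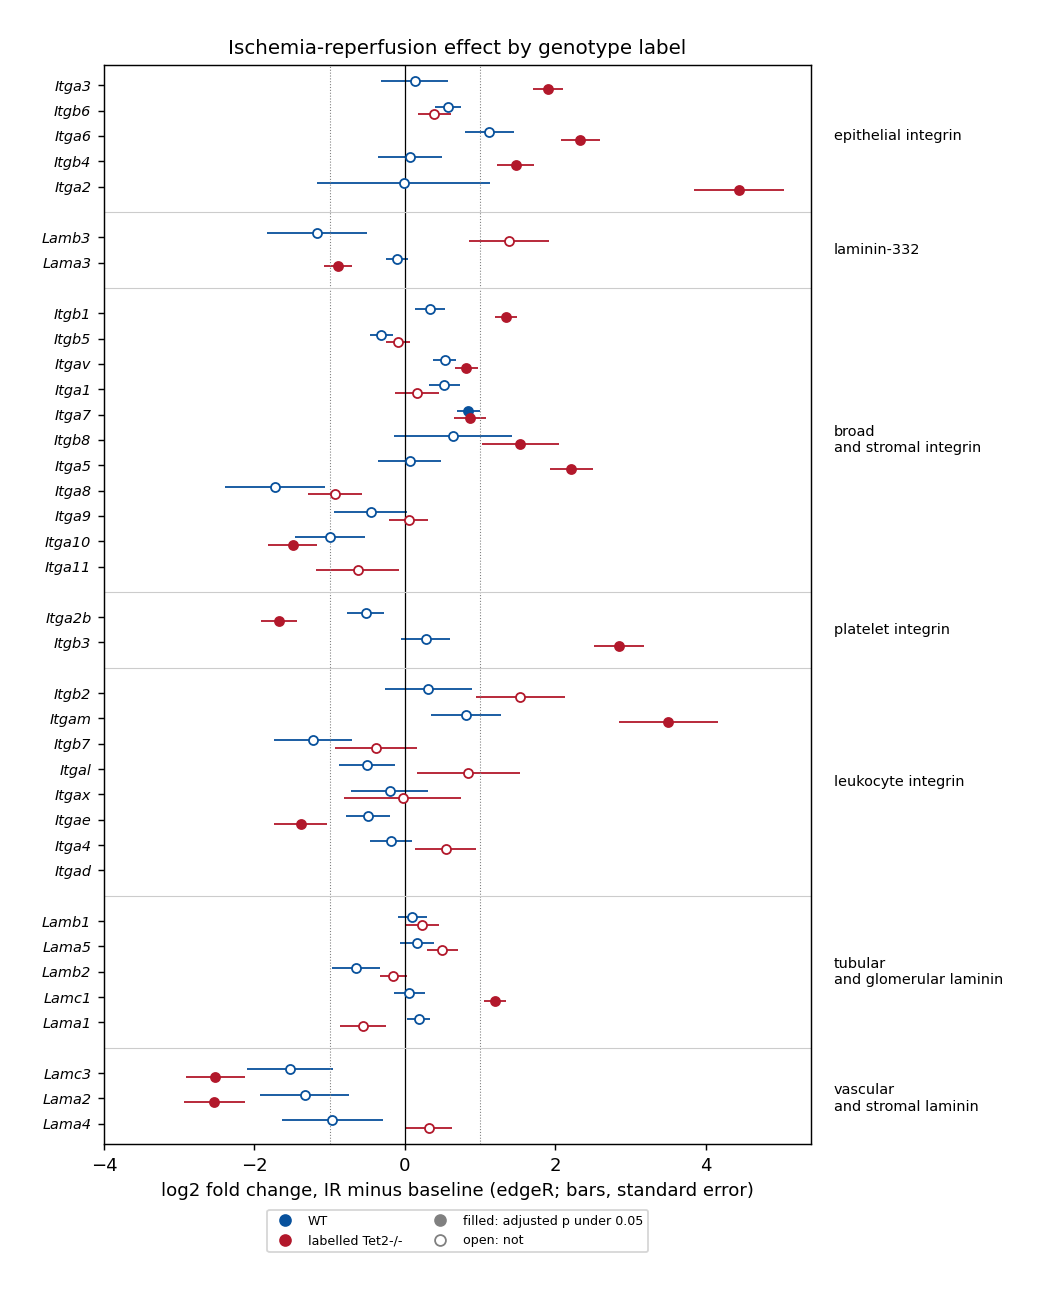
Fitted log2 fold change of IR over baseline for each chain, in WT and in Tet2-/- labelled kidneys, with bars of 1 standard error and filled points where edgeR's adjusted p was under 0.05. A single WT point, Itga7, is filled, against 18 in the Tet2-/- labelled kidneys.

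Itgb1 (NM_010578, mm9 chr8:131209554-131257479) carried the largest share of receptor mRNA. It was 43.1, 47.2 and 47.9 FPKM in the WT baseline kidneys and 31.7, 36.8 and 31.3 FPKM in the Tet2-/- labelled ones. After IR it was 46.9, 78.5 and 56.2 FPKM in WT and 95.9, 108 and 99.8 FPKM in the Tet2-/- labelled kidneys. The 3 labelled Tet2-/- IR libraries lay above the other 9, and the baseline genotypes did not overlap either, in the opposite direction. Itgb1 rose 3.04-fold in mean FPKM with IR in the Tet2-/- labelled kidneys (log2 fold change 1.35 ± 0.146 SE, adjusted p = 0.000511). The IR effect differed between genotypes by 1.06 ± 0.242 on the log2 scale (adjusted p = 0.0240), and the call was lost without Tet2-/- baseline replicate 1 or 3 or WT IR replicate 3, with an adjusted p of up to 0.0697. After IR the genotype difference of 0.65 missed the threshold (adjusted p = 0.0911), and DESeq2 (0.0281), the fit on all 12 libraries (0.0235) and limma on log2(FPKM + 0.1) (0.0491) put it below.

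Itga5 (NM_001314041, chr15:103174718-103197222), which joins β1 in the main fibronectin receptor, was near 1 FPKM in 3 of the 4 groups. It read 1.18, 1.57 and 0.583 FPKM in WT baseline, 1.39, 1.53 and 1.01 FPKM in Tet2-/- baseline and 1.37, 1.65 and 0.663 FPKM in WT IR kidneys. In Tet2-/- IR kidneys it read 7.39, 10.4 and 4.30 FPKM, all above the other 9 libraries. It was 6.00-fold higher than in WT after IR (log2 difference 2.49 ± 0.371, adjusted p = 0.0153) and rose 5.62-fold with IR in the Tet2-/- labelled kidneys (log2 fold change 2.21 ± 0.290, adjusted p = 0.00104). The difference of the IR effects was 2.18 ± 0.547 (adjusted p = 0.0330) and kept its call in 3 of the 12 fits that each left out 1 library, those without Tet2-/- IR replicate 3, WT IR replicate 2 or WT baseline replicate 3 (adjusted p of the others up to 0.0901). The difference between genotypes after IR lost its call without WT IR replicate 1 (adjusted p = 0.0539).

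**Figure D3:**
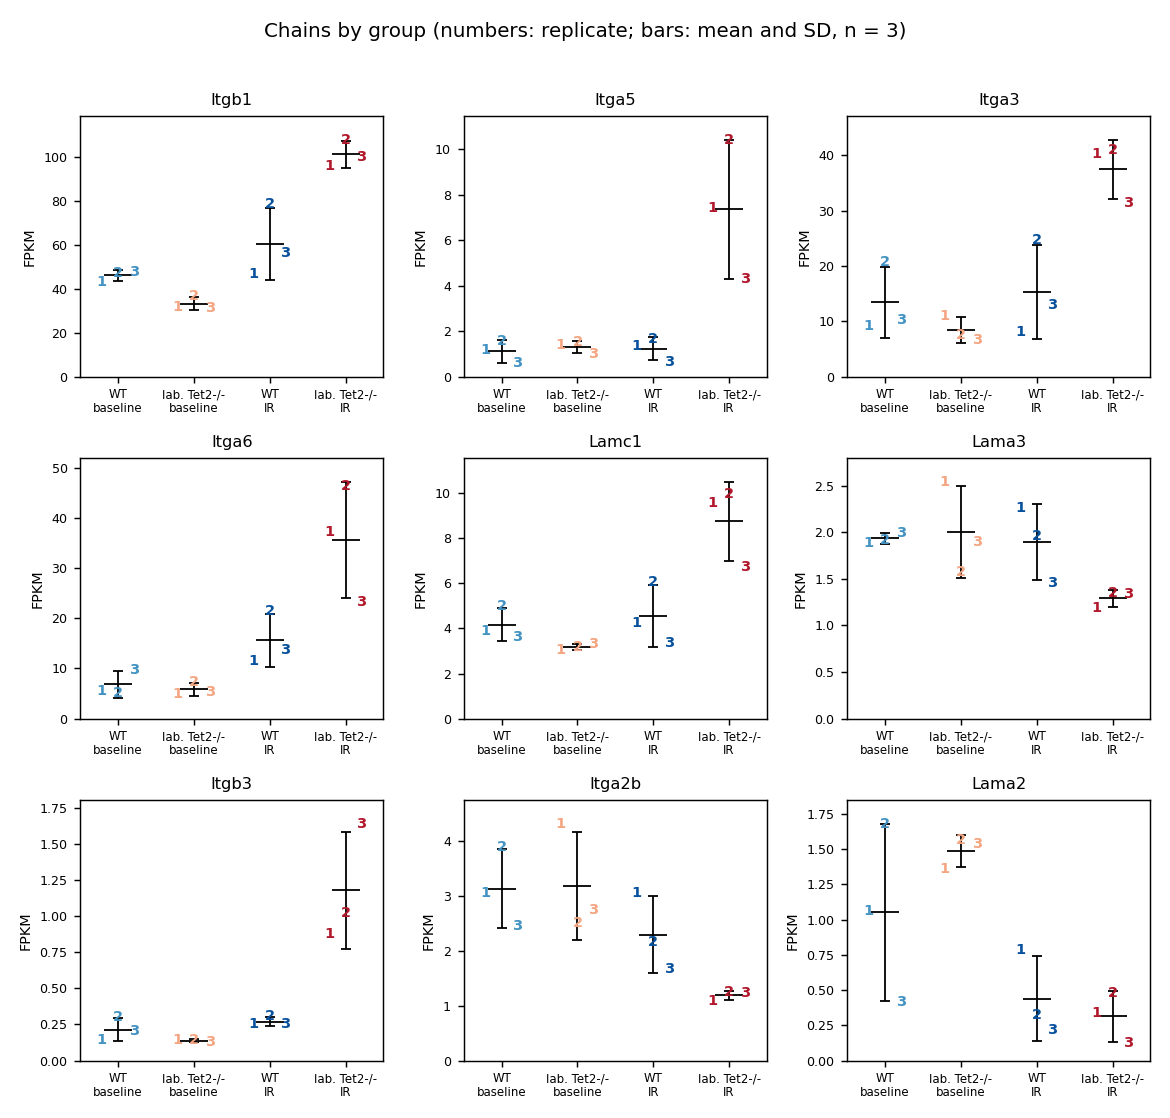
FPKM of single chains in the 4 groups, with a digit at each library for its replicate number and the mean and SD of 3 libraries. For Itgb1 and Itga5 every Tet2-/- labelled IR library lies above the other 9, and for Itga2b every one lies below them.

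In the same class of broadly expressed and stromal chains, αv, α7, β8 and α10 also passed. Itgav, the chain of the vitronectin and TGF-β binding receptors, was 11.3, 12.96 and 9.75 FPKM in Tet2-/- baseline and 26.2, 26.1 and 19.5 FPKM in Tet2-/- IR kidneys, and it rose by 0.82 ± 0.155 on the log2 scale (adjusted p = 0.00499). In WT it went from 13.7, 10.8 and 14.2 FPKM to 18.6, 20.2 and 19.6 FPKM, without overlap, at a log2 difference of 0.53 (adjusted p = 0.108, and 0.0337 by DESeq2). Itga7, a laminin-binding chain best known from muscle, was the member that passed in both genotypes. It was 2.43, 2.90 and 2.17 FPKM in WT baseline and 5.31, 4.51 and 4.25 FPKM in WT IR kidneys, a rise of 0.84 ± 0.151 (adjusted p = 0.0369). In the Tet2-/- labelled kidneys it went from 3.74, 2.80 and 2.81 FPKM to 8.78, 5.72 and 5.75 FPKM, a rise of 0.86 ± 0.216 (adjusted p = 0.0151). The WT rise missed the threshold when any 1 of the 6 libraries was left out, with an adjusted p of up to 0.147. The labelled Tet2-/- rise missed it without Tet2-/- baseline replicate 2 (0.0575) or 3 (0.0599). The 4 skeletal muscle markers summed to no more than 1.58 FPKM in any library.

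Itgb8, which joins αv to bind latent TGF-β, was the least even of the abundant chains at baseline. It was 2.21, 0.591 and 7.86 FPKM in WT and 0.509, 1.95 and 1.22 FPKM in Tet2-/- labelled kidneys, so the groups overlapped. After IR it was 5.28, 7.43 and 4.89 FPKM in WT and 4.84, 6.09 and 2.14 FPKM in the Tet2-/- labelled kidneys. It rose by 1.54 ± 0.512 with IR in the latter (adjusted p = 0.0435), and the call was lost in 4 of the 6 fits that each left out 1 library, those without Tet2-/- IR replicate 1 or 2 or Tet2-/- baseline replicate 1 or 3 (adjusted p up to 0.107).

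Of the other 6 chains of the broad and stromal class, 1 passed in any test. Itga10, a collagen-binding chain of cartilage, was at a mean of 0.544 FPKM in Tet2-/- baseline and 0.233 FPKM in Tet2-/- IR kidneys and fell by 1.49 ± 0.322 on the log2 scale (adjusted p = 0.00854). Some of its annotated exon bases are not its own alone, so its counts are uncertain. Itgb5, the second beta chain by level, had group means between 18.9 and 25.9 FPKM. Itga1, a collagen receptor chain of vessels and mesangium, had means between 3.48 and 6.82 FPKM, Itga8, a mesangial chain, between 0.679 and 2.11 FPKM (passing with the block for IR in Tet2-/- labelled kidneys, -1.01, adjusted p = 0.00974), Itga9 between 0.936 and 1.80 FPKM and Itga11, a collagen receptor chain of fibroblasts, at most 0.0373 FPKM.

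Of the 5 epithelial integrin chains, 4 rose after IR in the Tet2-/- labelled kidneys, where 22.9% of all genes did and 12.7% were called higher. Itga3, Itga6, Itgb4 and Itga2 were called higher and Itgb6 did not pass. In the same comparison the 4 podocyte markers were all called higher, summing to 13.1 to 18.5 FPKM before and 40.7 to 85.4 FPKM after IR, and of 4 collecting duct markers the keratins Krt8 (2.78) and Krt18 (2.18) rose and 1 fell. The part of these cells in the chains' values was not tested. Itga3 (NM_013565, chr11:94905789-94938028), the α3 chain of the laminin receptor of tubules and podocytes, was 11.03, 7.49 and 6.67 FPKM in Tet2-/- baseline and 40.3, 40.9 and 31.4 FPKM in Tet2-/- IR kidneys. The latter lay above every other library, and the log2 fold change was 1.90 ± 0.201 (adjusted p = 0.000464). WT kidneys had 9.17, 20.8 and 10.3 FPKM of Itga3 at baseline and 8.16, 24.8 and 13 FPKM after IR, and replicate 2 was the highest of each group. After IR the genotypes differed by 1.20 (adjusted p = 0.0789), below the threshold by DESeq2 (0.0121) and without WT IR replicate 2 (log2 difference 1.656, adjusted p = 0.02965). The interaction of 1.81 also missed it (adjusted p = 0.0591), and passed with the block within genotype (1.89, adjusted p = 0.00308).

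Itga6 and Itgb4 together form the receptor of hemidesmosomes, which ties keratin filaments to laminin-332. Itga6 (NM_008397, chr2:71624996-71696484) was 4.89, 7.39 and 5.24 FPKM in Tet2-/- baseline and 37.2, 46.3 and 23.3 FPKM in Tet2-/- IR kidneys, a 6.10-fold rise (log2 fold change 2.33 ± 0.256, adjusted p = 0.000533). In WT it was 5.55, 5.07 and 9.79 FPKM at baseline and 11.5, 21.5 and 13.7 FPKM after IR, without overlap. That WT difference of 1.12 missed the threshold (adjusted p = 0.111), and it passed with the replicate number as a block (1.14, adjusted p = 0.0487) and with DESeq2 (0.0111). Between genotypes after IR, a difference of 1.08 missed it as well (adjusted p = 0.0564). That difference passed in 4 of 16 alternatives. These were DESeq2 (0.00456), the fit on all 12 libraries (0.0357), the replicate block (0.0423) and the fit without WT IR replicate 2 (0.04996).

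Itgb4 was 1.30, 0.721 and 0.788 FPKM in Tet2-/- baseline and 3.13, 3.79 and 2.42 FPKM in Tet2-/- IR kidneys. It rose by 1.47 ± 0.251 on the log2 scale (adjusted p = 0.00312). WT kidneys had 1.32, 2.28 and 1.27 FPKM at baseline and 1.13, 3.12 and 1.14 FPKM after IR, where the groups overlapped. After IR the genotypes differed by 0.71 (adjusted p = 0.264), a difference that passed at 1.29 when WT IR replicate 2 was left out (adjusted p = 0.0261). The interaction was 1.44 (adjusted p = 0.114), and passed with the block within genotype (1.58, adjusted p = 0.0151). Itga2, a collagen receptor chain of epithelia and platelets, stayed under 1 FPKM in every group mean. Itgb6, the epithelial partner of αv that activates latent TGF-β, had a mean of 13.2 ± 2.47 FPKM in WT baseline, 12.7 ± 1.58 FPKM in Tet2-/- baseline, 20.6 ± 1.37 FPKM in WT IR and 20.2 ± 7.14 FPKM in Tet2-/- IR kidneys. Its fitted change with IR was 0.58 in WT (adjusted p = 0.118) and 0.39 in Tet2-/- labelled kidneys (adjusted p = 0.187).

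Lama3 and Lamb3 encode α3 and β3 chains of laminin-332, the ligand of that receptor. Lama3 was 2.54, 1.57 and 1.89 FPKM in Tet2-/- baseline and 1.19, 1.34 and 1.34 FPKM in Tet2-/- IR kidneys, and it fell by 0.89 ± 0.190 on the log2 scale (adjusted p = 0.00826). On log2(FPKM + 0.1) with limma the fall was -0.57 and missed the threshold (adjusted p = 0.0765). WT libraries read 1.89, 1.92 and 1.996 FPKM at baseline and 2.26, 1.97 and 1.45 FPKM after IR, where the groups overlapped. Between genotypes after IR Lama3 was lower in the Tet2-/- labelled kidneys without overlap, at -0.64 (adjusted p = 0.0551). That difference passed in 2 of 16 alternatives, DESeq2 (0.0151) and the fit on all 12 libraries (0.0284). Lamb3 did not pass in any of the 5 tests. After IR it was 1.13, 4.51 and 1.34 FPKM in WT and 1.90, 3.51 and 1.93 FPKM in the Tet2-/- labelled kidneys. Its fitted change with IR in WT was -1.17 (adjusted p = 0.342), and 0.061 without WT baseline replicates 2 and 3. With the block Lamb3 passed in both IR comparisons and in opposite directions, at -1.21 in WT (adjusted p = 0.0122) and 1.63 in Tet2-/- labelled kidneys (adjusted p = 0.0275). The latter, 1.38 without the block (adjusted p = 0.0691), passed with DESeq2 as well (0.0166) and without Tet2-/- baseline replicate 1 (2.27, adjusted p = 0.00464), and so did the interaction with DESeq2 (2.54, adjusted p = 0.0307) and with the block within genotype (2.87, adjusted p = 0.0187), against 2.59 (adjusted p = 0.106) without it.

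Among the 5 laminin chains of tubular and glomerular basement membrane, Lamc1, the γ1 chain common to most laminins, passed. It was 3.03, 3.18 and 3.29 FPKM in Tet2-/- baseline and 9.58, 9.96 and 6.74 FPKM in Tet2-/- IR kidneys, and it rose by 1.20 ± 0.142 (adjusted p = 0.000687). The WT values were 3.88, 4.99 and 3.61 FPKM at baseline and 4.26, 6.06 and 3.35 FPKM after IR, so the groups overlapped. The interaction was 1.18 ± 0.261 (adjusted p = 0.0211), and it was lost without WT IR replicate 1, WT baseline replicate 2 or any 1 Tet2-/- baseline library (adjusted p up to 0.0561). Between genotypes after IR the difference was 0.85 ± 0.202 (adjusted p = 0.0445), which held in 8 of 16 alternatives and, of the fits that left out a library, in the one without WT IR replicate 2 (adjusted p of the others up to 0.151).

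Lamb1, the most abundant laminin chain, was 19.6, 16.8 and 24.1 FPKM in WT baseline, 23.2, 21.0 and 16.9 FPKM in Tet2-/- baseline, 19.2, 26.6 and 21.9 FPKM in WT IR and 35.9, 31.1 and 18.8 FPKM in Tet2-/- IR kidneys. All 4 groups overlapped and no test passed. Lama5, the α5 chain of mature glomerular and tubular laminins, did not overlap between genotypes after IR, at 13.1, 17.1 and 14.3 FPKM in WT and 26.6, 23.98 and 19.1 FPKM in the Tet2-/- labelled kidneys, and did not pass. Lamb2, the β2 chain of the glomerular basement membrane, had group means between 7.56 and 11.2 FPKM, and Lama1, the tubular α1 chain, between 1.17 and 1.86 FPKM. Lama1 was lower in the Tet2-/- labelled kidneys after IR without overlap, at -0.77 (adjusted p = 0.0671). With DESeq2 the genotype differences after IR of Lama5 (0.55, adjusted p = 0.0271) and Lama1 (-0.77, adjusted p = 0.0158) both passed. They passed in 1 and 2 of 16 alternatives. The block added small changes in Lamb2 for IR in WT (-0.68, adjusted p = 0.0486) and in Lama5 for IR in Tet2-/- labelled kidneys (0.51, adjusted p = 0.0351).

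Of the 3 vascular and stromal laminins, 2 fell with IR in the Tet2-/- labelled kidneys and none passed in WT, against 20.3% and 3.02% of all genes. Lama2, the α2 chain of muscle and mesangium, was 1.36, 1.56 and 1.54 FPKM in Tet2-/- baseline and 0.341, 0.477 and 0.122 FPKM in Tet2-/- IR kidneys, a fall to 21.1% of the mean (log2 fold change -2.53 ± 0.409, adjusted p = 0.00246). In WT it was 1.06, 1.68 and 0.417 FPKM at baseline and 0.782, 0.321 and 0.218 FPKM after IR, where the groups overlapped (log2 difference -1.33, adjusted p = 0.240). Lamc3, the γ3 chain, a less widespread relative of γ1, followed the same order.

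Lamc3 was 2.45, 2.43 and 2.03 FPKM in Tet2-/- baseline and 0.552, 0.712 and 0.200 FPKM in Tet2-/- IR kidneys (log2 fold change -2.52 ± 0.390, adjusted p = 0.00206). In WT it was 1.72, 2.49 and 0.921 FPKM at baseline and 1.20, 0.360 and 0.319 FPKM after IR, with a fitted difference of -1.53 (adjusted p = 0.177) that passed without WT IR replicate 1 (-2.36, adjusted p = 0.0422) and with DESeq2 (0.0420). The interactions of Lama2 (-1.17, adjusted p = 0.359) and Lamc3 (-0.96, adjusted p = 0.434) did not pass. Lama4, the endothelial α4 chain, had group means between 0.408 and 0.813 FPKM and its lowest value, 0.0660 FPKM, in WT IR replicate 3, the library lowest in endothelial markers. In Tet2-/- IR kidneys endothelial markers summed to 25.5, 32.5 and 16.6 FPKM and stromal markers to 28.4, 52.5 and 26.1 FPKM, against 14.6 to 21.3 FPKM and 19.4 to 26.8 FPKM in Tet2-/- baseline kidneys. In RNA of kidney tissue, fewer cells of a type and less RNA per cell cannot be told apart.

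The platelet integrin chains parted. Itgb3, the β3 chain that also joins αv outside platelets, was 0.146, 0.142 and 0.128 FPKM in Tet2-/- baseline and 0.875, 1.02 and 1.64 FPKM in Tet2-/- IR kidneys, an 8.50-fold rise (log2 fold change 2.84 ± 0.331, adjusted p = 0.000646). The WT values were 0.141, 0.300 and 0.202 FPKM at baseline and 0.251, 0.306 and 0.254 FPKM after IR, with overlap. It was higher than in WT after IR by 2.05 ± 0.332 (adjusted p = 0.0178), and that call was lost without WT IR replicate 1 (0.0696) or 3 (0.0569). The interaction of 2.61 ± 0.458 (adjusted p = 0.00871) passed in 21 of 21 alternatives.

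Itga2b, the αIIb chain that pairs with Itgb3 on platelets, fell. It was 4.31, 2.50 and 2.73 FPKM in Tet2-/- baseline and 1.08, 1.24 and 1.23 FPKM in Tet2-/- IR kidneys (log2 fold change -1.68 ± 0.242, adjusted p = 0.00155). In WT it was 3.05, 3.89 and 2.45 FPKM at baseline and 3.05, 2.16 and 1.67 FPKM after IR, and the groups overlapped. After IR it was lower by 1.03 in Tet2-/- labelled than in WT kidneys (log2 difference -1.03 ± 0.248, adjusted p = 0.0458). That genotype call held in 4 of 16 alternatives and was lost whichever of the 6 libraries was left out (adjusted p up to 0.150). The 6 platelet markers, Pf4 and Ppbp among them, summed to 1.24 to 1.92 FPKM in the 6 baseline libraries, less than Itga2b alone in each. They summed to 0.796 to 1.98 FPKM in WT IR and to 3.71, 10.5 and 8.29 FPKM in Tet2-/- IR kidneys, where Itga2b was lowest. With IR in the latter, Pf4, Ppbp and Gp9 rose and Gp1ba fell by 0.98 on the log2 scale (adjusted p = 0.0332). Of these markers, Gp6 was at 0 in 7 of the 12 libraries and the other 5 in none.

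The leukocyte integrin chains were low in all groups. Of 8, 7 were tested, and 2 passed after IR in the Tet2-/- labelled kidneys, Itgam up and Itgae down, a smaller share than the 43.1% of all genes. Itgam (NM_001082960, chr7:135206154-135262005), the αM chain of the complement receptor of neutrophils and macrophages, was 0.158, 0.207 and 0.0690 FPKM in Tet2-/- baseline and 2.25, 3.23 and 0.556 FPKM in Tet2-/- IR kidneys, a 13.9-fold rise (log2 fold change 3.498 ± 0.657, adjusted p = 0.00473). The WT values were 0.194, 0.105 and 0.108 FPKM at baseline and 0.323, 0.321 and 0.112 FPKM after IR, with overlap. The Tet2-/- IR kidneys lay above all 9 others. The genotypes differed after IR by 2.89 ± 0.652 (adjusted p = 0.0391) and was lost in 5 of the 6 fits that each left out 1 library, all but that without Tet2-/- IR replicate 3 (adjusted p up to 0.109). The interaction of 2.72 did not pass (adjusted p = 0.0655), and passed with DESeq2 (0.0106) and with the block within genotype (2.65, adjusted p = 0.0100).

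Itgb2, the β2 chain that Itgam, Itgal, Itgax and Itgad share, was the most abundant leukocyte chain and did not pass. It was 1.13, 0.677 and 0.713 FPKM in WT baseline, 0.671, 1.22 and 0.543 FPKM in Tet2-/- baseline, 2.09, 0.915 and 0.340 FPKM in WT IR and 2.42, 5.45 and 0.876 FPKM in Tet2-/- IR kidneys. The groups overlapped in each comparison, and the high value belonged to the library richest in macrophage markers. Its change with IR in the Tet2-/- labelled kidneys was 1.54 (adjusted p = 0.0698), which passed with the block (1.32, adjusted p = 0.0120). Itgae, the αE chain of resident lymphocytes, fell by 1.39 ± 0.351 (adjusted p = 0.0159), from a mean of 0.316 FPKM to 0.145 FPKM.

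The same library, Tet2-/- IR replicate 2, was highest of the 12 in Itgal (1.59 FPKM), Itgax (0.757 FPKM), Itgb7 (1.18 FPKM) and Itga4 (0.609 FPKM), none of which passed. These are the α chain of the lymphocyte receptor for Icam1, a chain of dendritic cells and macrophages, and the chains of the gut- and vessel-homing receptor. Itga4 shares 8.0% of its exon bases with Cerkl on the other strand, and with genes on the other strand Itgb4 shares 7.7%, Lamc3 6.3%, Itgav 5.9% and Itga8 5.1%. The use of strand in counting is not given in the sources used here, so reads of these chains and of their antisense partners cannot be told apart there. Among markers, the 8 neutrophil genes summed to 0.651 to 2.86 FPKM in the baseline libraries, 4.09 to 9.59 FPKM in WT IR and 134.4, 127.7 and 75.6 FPKM in Tet2-/- IR kidneys, and all 8 rose with IR in the latter. Of 8 macrophage markers 1 rose and 1 fell there, and of 8 lymphocyte markers 2 fell. The part of these cells in the Itgam and Itgb2 values was not tested.

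**Figure D4:**
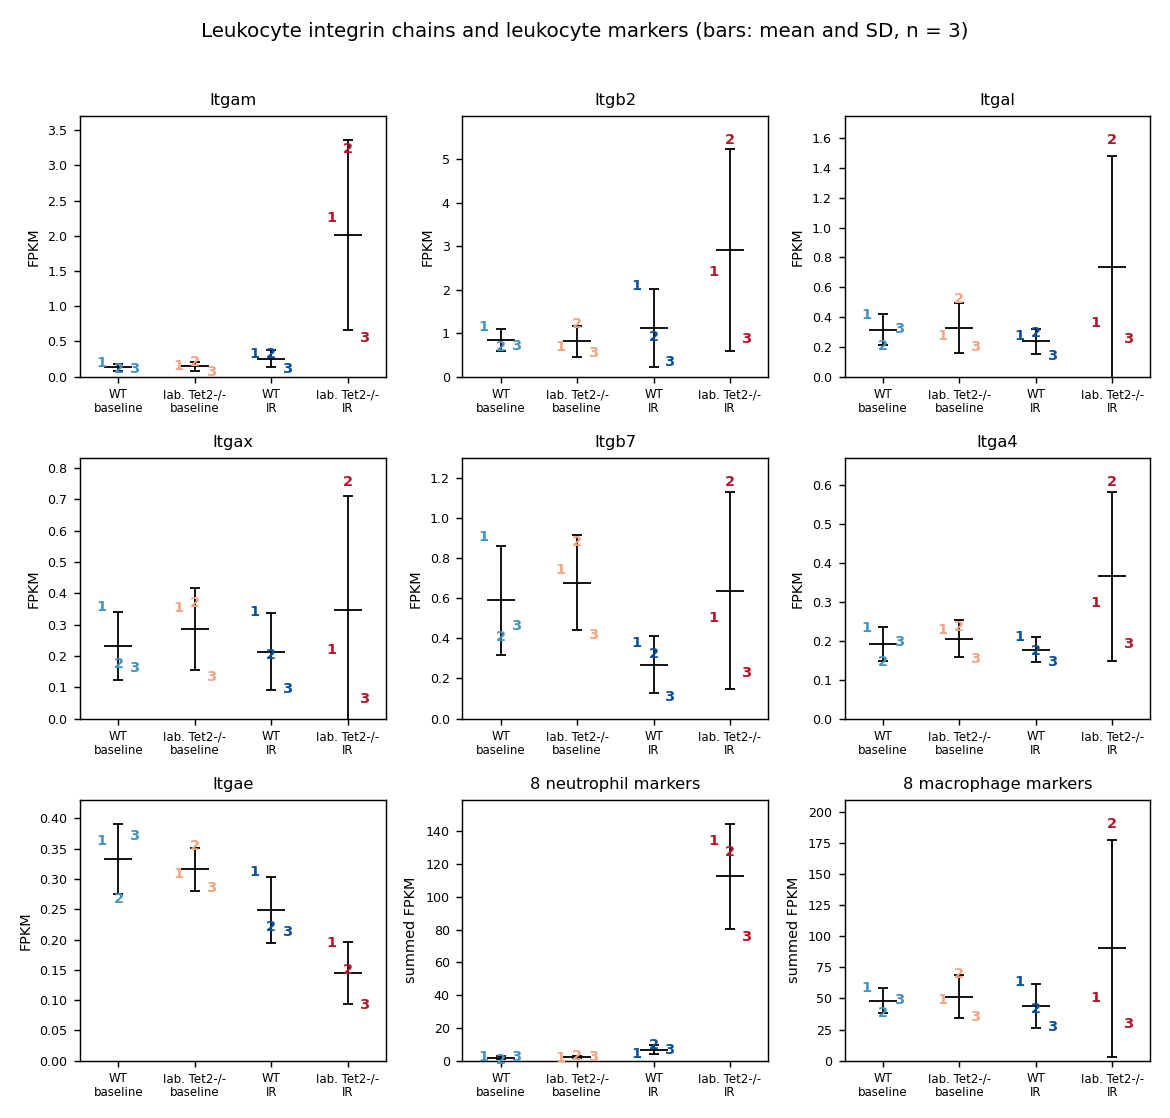
FPKM of leukocyte integrin chains and summed neutrophil and macrophage markers in the 4 groups, with a digit at each library for its replicate number and the mean and SD of 3 libraries (lower bar ends stop at 0). Itgam is higher in the 3 Tet2-/- labelled IR libraries than in the other 9, while for Itgb2 1 of the 3 stands alone at 5.45 FPKM.

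Epithelial and leukocyte chains were then set side by side, with the epithelial integrins and the laminin chains Lama3 and Lamb3 as 1 class of 7. With IR in the Tet2-/- labelled kidneys the median log2 fold change was 1.47 over the 7 epithelial chains and 0.54 over 7 leukocyte chains, against 0.04 over all genes tested. Of the epithelial chains 4 were called higher and Lama3 fell, and of the leukocyte chains 1 was called higher and 1 lower, where 12.7% of all genes were called higher and 11.6% lower. Without Tet2-/- IR replicate 2 the leukocyte median was -0.30, and that of the epithelial chains lay between 1.31 and 2.13 whichever library was left out.

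In WT the medians with IR were 0.07 and -0.20, and none of either class passed. Between genotypes after IR the order was the other way round, at -0.01 for epithelial and 1.14 for leukocyte chains, with 0 and 1 passing. Without WT IR replicate 2 the order turned, at 1.29 for epithelial and 1.13 for leukocyte chains. Without Tet2-/- IR replicate 2 it held, at -0.30 and 0.41. Over the 5 epithelial integrins alone the median was 0.71. Over the 12 libraries, summed epithelial chains were 30.6, 54.5 and 42.1 FPKM in WT baseline, 32.7, 29.9 and 29.4 FPKM in Tet2-/- baseline, 45.6, 76.0 and 52.2 FPKM in WT IR and 102.7, 124.3 and 74.5 FPKM in Tet2-/- IR kidneys. The sum of the leukocyte chains was between 1.16 and 3.96 FPKM in the first 3 groups and 6.26, 12.998 and 2.26 FPKM in the last, of which replicate 3 lay inside the range of the others.

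Between genotypes after IR, 4 of 35 chains were called, Itga5, Itgam and Itgb3 higher and Itga2b lower in the Tet2-/- labelled kidneys, which is 11.4% against 6.15% of 16186 genes (2.3% higher and 3.85% lower). With 1 library left out the count ran from 0, without WT IR replicate 1, to 6, without WT IR replicate 2. Lamc1 passed the adjusted p alone, making 4 higher and 1 lower (14.3%, against 9.68% of genes, 3.51% higher and 6.17% lower). The groups did not overlap in 9 chains that were higher and 4 that were lower, against 22% and 14.6% of all genes.

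At baseline no chain passed between genotypes among 35 tested, in a comparison that called 2 of 16086 genes (0.0124%). At an unadjusted p under 0.05 there were 5 of the 35 chains and 1891 of the 16086 genes, and DESeq2 called 1 chain, lower in the Tet2-/- labelled kidneys. The groups did not overlap in 5 chains, each lower in the Tet2-/- labelled kidneys, namely Itgb1, Itgb5, Itga2, Lamb3 and Lamc1, where 16.5% of all genes were lower in this way and 3.06% higher. Of these, Itga2 and Lamb3 are described because of their size, a choice made after their values were seen.

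Itga2 was 0.184, 0.671 and 0.334 FPKM in WT baseline and 0.019, 0.012 and 0.003 FPKM in Tet2-/- baseline kidneys, which is 67.5, 278 and 131 counts against 6, 7.5 and 1 counts. The fitted difference was -5.02 ± 0.709 (adjusted p = 0.206), and it is the chain that DESeq2 called (-5.05, adjusted p = 9.9e-11). With IR in the Tet2-/- labelled kidneys it rose to 0.285, 0.423 and 0.198 FPKM, within the WT baseline range (log2 fold change 4.44 ± 0.600, adjusted p = 0.00117). In WT after IR it was 0.074, 1.15 and 0.035 FPKM, so a single WT library was far above the others. The interaction of 4.49 did not pass (adjusted p = 0.0901), and passed with the block within genotype (5.71, adjusted p = 0.0122). Lamb3 was 2.09, 8.93 and 3.96 FPKM in WT baseline and 1.53, 0.442 and 0.390 FPKM in Tet2-/- baseline kidneys, with a fitted difference of -2.60 ± 0.692 (adjusted p = 0.263). The sum of 6 markers of urothelium, the lining of the renal pelvis, was lower in the same libraries. These markers, a list added after the values were seen, summed to 19.3, 44.2 and 37.3 FPKM in WT and 9.41, 1.86 and 4.22 FPKM in Tet2-/- labelled kidneys. None of the 6 passed between genotypes at baseline (edgeR adjusted p from 0.206 to 0.308). Collecting duct markers summed to 519.8, 942.1 and 504.5 FPKM in WT and 583.4, 349.5 and 327.7 FPKM in the Tet2-/- labelled kidneys. Most of that sum was Aqp2 (fitted difference -0.75). The other fitted differences were -1.15 for Krt18, -0.02 for Krt8 and 0.34 for Hsd11b2, and none of these markers passed. After IR in WT the urothelial sum was highest in replicate 1 (63.9 FPKM), not in replicate 2 (33.0 FPKM), where Itga2 and Lamb3 were highest. In Tet2-/- IR kidneys it was 13.9, 16.2 and 25.1 FPKM, above the Tet2-/- baseline libraries, and 2 of the 6 urothelial markers were called higher with IR there, Krt5 (3.71, adjusted p = 0.00215) and Upk1b (2.05, adjusted p = 0.0408). The part of these tissues in the values was not tested.

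**Figure D5:**
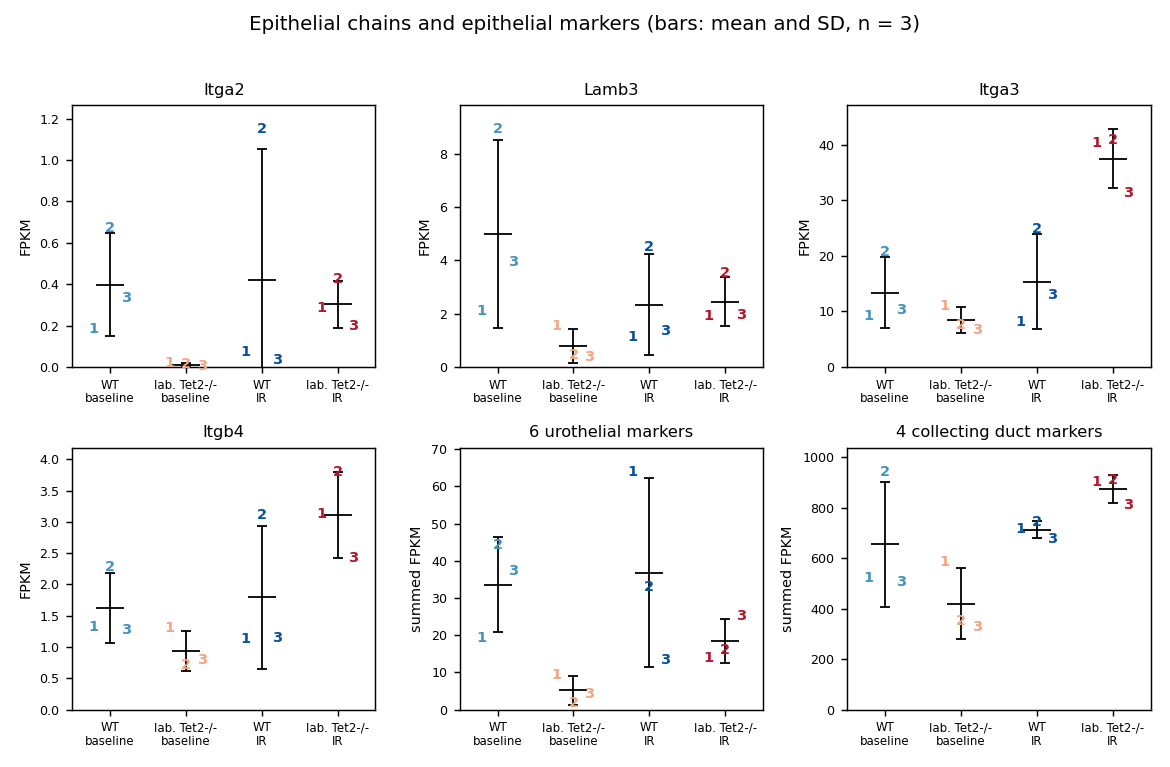
FPKM of Itga2 and Lamb3, the chains with the lowest fitted difference at baseline, of Itga3 and Itgb4, and of summed urothelial and collecting duct markers, with a digit at each library for its replicate number and the mean and SD of 3 libraries (lower bar ends stop at 0). WT replicate 2 is the highest baseline library for Itga2, Lamb3 and the urothelial sum.

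The proteins that work with these chains were counted from lists of the pathway. Inside the cell, of 34 integrin adaptor and signalling genes 16 rose and 2 fell with IR in the Tet2-/- labelled kidneys, where 22.9% of all genes rose and 20.3% fell. None passed in WT, where 3.02% of all genes did. Actn1, an actin crosslinker of adhesions, had means of 6.48 and 34.6 FPKM (log2 fold change 2.16 ± 0.239, adjusted p = 0.000545). Flna (1.62 ± 0.244), the tetraspanin Cd9 (1.61 ± 0.169) and Vasp (1.61 ± 0.116) rose and Tln2, the less common talin, fell by 1.57 ± 0.252, each with an edgeR adjusted p of at most 0.002405. The interaction was passed by 6 of the 34, all positive, as by 3.79% of all genes, Cd9 (1.34, adjusted p = 0.0283) and Vasp (0.999, adjusted p = 0.0247) among them.

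Of 4 hemidesmosome genes 3 rose with IR in the Tet2-/- labelled kidneys and none passed in WT, against 22.9% and 3.02% of all genes. Plec, the plectin that links Itgb4 to keratin, was 3.996, 3.22 and 3.10 FPKM in Tet2-/- baseline and 16.3, 18.7 and 10.01 FPKM in Tet2-/- IR kidneys (log2 fold change 1.85 ± 0.213, adjusted p = 0.000624). Cd151, a tetraspanin bound to the α3 and α6 chains, was 42.5, 43.8 and 44.96 FPKM before and 133.1, 149.7 and 151.2 FPKM after (1.47 ± 0.139, adjusted p = 0.000314). Its interaction of 0.76 passed (adjusted p = 0.0478). Cd151 is on the adaptor and signalling list as well, so the counts of both lists include it.

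Outside the cell, of 23 other basement membrane genes 5 rose and 6 fell with IR in the Tet2-/- labelled kidneys and none passed in WT, shares near those of all genes (22.9%, 20.3% and 3.02%). Tinagl1 (2.57 ± 0.282) and Col18a1 (1.58 ± 0.149) rose, while Egflam (-2.18 ± 0.411), Fras1 (-1.68 ± 0.185) and Tinag, a tubular basement membrane antigen (-1.29 ± 0.175), fell, with edgeR adjusted p of at most 0.00483. The interaction was passed by 2 of the 23, both negative, as by 5.39% of all genes. They were Fras1 (-1.065, adjusted p = 0.0476) and Tinag (-1.04, adjusted p = 0.0289). Of 19 soluble and matrix ligands of integrins, 4 rose in WT, against 1.88% of all genes, and 11 rose and 2 fell in the Tet2-/- labelled kidneys, against 22.9% and 20.3%. Spp1, the osteopontin bound by αv integrins, was 267.6, 188.1 and 431.8 FPKM in WT baseline and 1163, 6394 and 4722 FPKM in WT IR kidneys (3.73 ± 0.680, adjusted p = 0.0389). In the Tet2-/- labelled kidneys Spp1 went from 227.9, 267.8 and 160.5 FPKM to 10670, 21440 and 8742 FPKM (5.68 ± 0.498, adjusted p = 0.000251), and its interaction of 1.98 did not pass (adjusted p = 0.131).

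The fibrinogen chains, ligands of Itgam and of the platelet receptor, were among the ligands that rose. Fgg had means of 5.15 and 150.5 FPKM in WT (4.79 ± 0.905, adjusted p = 0.0428) and of 1.45 and 239.4 FPKM in the Tet2-/- labelled kidneys (7.17 ± 0.889, adjusted p = 0.000840). Fga rose by 3.51 ± 0.666 in WT (adjusted p = 0.0428) and by 4.84 ± 0.674 in the Tet2-/- labelled kidneys (adjusted p = 0.00133), and Lgals3, a galectin that binds integrin glycans, by 2.19 ± 0.243 (0.0106) and 3.22 ± 0.278 (0.000246). Fgb, at 0.0380 FPKM in Tet2-/- baseline and 60.7 FPKM in Tet2-/- IR kidneys on average, rose in the latter (10.55 ± 1.29, adjusted p = 0.000771) and missed the threshold in WT (6.26 ± 1.40, adjusted p = 0.0649). No interaction of these 5 ligands passed. Of the 19 ligands on the list 2 passed it, both positive, as did 3.79% of all genes. Between genotypes after IR 2 of 18 ligands tested were called higher, against 2.3% of all genes.

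Of 8 counter-receptors of leukocyte integrins, 7 were tested. Icam1, the ligand of the β2 integrins on endothelium and injured epithelium, rose in both genotypes, from 3.88, 5.26 and 4.02 FPKM to 7.78, 15.5 and 11.5 FPKM in WT (1.34 ± 0.263, adjusted p = 0.0471) and by 1.14 ± 0.217 in the Tet2-/- labelled kidneys (adjusted p = 0.00492). Its interaction of -0.17 was within its error (SE 0.363, adjusted p = 0.809). Cdh1, the E-cadherin that Itgae binds, rose by 1.03 ± 0.156 in the Tet2-/- labelled kidneys (adjusted p = 0.00191) and differed by 0.02 ± 0.204 in WT (adjusted p = 0.964), and its interaction of 1.05 passed (adjusted p = 0.0326).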

How the data were processed

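Total RNA of 12 kidneys from separate mice was sequenced by the authors, 1 library a kidney. The reads were aligned to mm9 with STAR and counted on RefSeq transcripts with HOMER, according to the submitters' processing notes, which name edgeR as well (versions and use of strand are not given in the sources used here). The authors deposited expected counts, not normalized, in steps of 0.5 with 38.7% of values not whole, and FPKM of the same transcripts. Of 34600 transcripts, the one with the highest total represented each of the 5569 symbols that had several, 11 members among them. The counts were rounded to whole numbers and analysed in R 4.3.3 with edgeR 4.0.16 (quasi-likelihood test, TMM, filterByExpr, Benjamini-Hochberg adjustment over all genes tested), each comparison on its own 6 libraries and the interaction on 12. A gene passed at an adjusted p under 0.05 and was called with a log2 fold change over 1 or under -1 as well. For the interaction, called means passed. Standard errors were taken as the log2 fold change over the root of F. Alternatives used DESeq2 1.42.0, limma 3.58.1, other scalings, filters and classes, a block on the replicate number and each library left out. Figures were drawn with matplotlib 3.10.9, and scripts were tested on simulated data.

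Named members are those that passed any test with a mean of at least 1 FPKM in a group, and the most abundant of each class. In each partner list at most 5 genes called in any comparison were named, by size of the change. The members, classes and lists were chosen with earlier results of these data known. Coordinates are those of the files, read as counted from 1 because 21 of 36 starts then match an exon start of the mm9 annotation (2 if counted from 0). Same-numbered libraries of 1 genotype deviated together from their group means, with correlations over 16685 genes of 0.353, 0.352 and 0.347 in WT and 0.121, 0.352 and 0.204 in the Tet2-/- labelled kidneys, although they came from different mice. The pairing for the IR comparisons is taken from these values alone, and between genotypes the numbers did not pair the libraries. Promoter windows came from RefSeq on GRCm38.p6, with an entry for 23 of 36 members, not for Itgb2, Itgb3, Itga6, Itgad, Lama3, Lama1, Itgae, Itgb4, Lama4, Itgal, Itga7, Lamc1 and Lamc3. Of the genes that match the rule for members, 1 is not reported here, and it stayed in every fit.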

Additional observations from a re-analysis of the deposited data

Results flagged for a closer look

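The genotype by IR interaction, tested over all 12 libraries with edgeR, singled out 4 chains whose IR effect differed between the genotypes as labelled. On the log2 scale the IR effect in the Tet2-/- labelled kidneys exceeded that in WT by 2.61 for Itgb3 (adjusted p = 0.00871), 2.18 for Itga5 (0.0330), 1.18 for Lamc1 (0.0211) and 1.06 for Itgb1 (0.0240). Each of the 4 was higher in the 3 Tet2-/- labelled IR libraries than in the other 9. The 8 neutrophil markers (75.6 to 134.4 FPKM summed in these 3 libraries, at most 9.59 FPKM in the others), the proximal tubule markers (406.9 to 631.9 FPKM, against at least 1023 FPKM), as well as the podocyte markers (40.7 to 85.4 FPKM, against at most 25.5 FPKM) and the platelet markers (3.71 to 10.5 FPKM, against at most 1.98 FPKM), separated the same libraries. Not every gene in these sums separated them. Slc5a2, a proximal tubule marker, was 39.5, 58.3 and 93.5 FPKM in these libraries and 7.48 FPKM in WT IR replicate 1. Slc22a6, another (331.2, 131.3 and 139.1 FPKM), and the platelet markers Gp1ba, Gp6 and Treml1 overlapped with the other libraries as well. The part of the marker genes in the 4 differences was not tested.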

How the results depend on the processing

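Over all 3003 values of the tested chains under other fits, 125 turned direction, 0 of them with an adjusted p under 0.05 in either fit. Of those for named chains that passed or had a log2 fold change of at least 0.5 in size, 958 kept their direction and side of the threshold, 64 dropped below it, 46 passed it and 4 turned direction: without WT baseline replicates 2 and 3, Itgb3 at baseline (0.08) and Lamb3 for IR in WT (0.061), Lama2 between genotypes after IR with libraries left out (-0.97 to 0.075, the latter without WT IR replicate 1) and the Itgb8 interaction (-0.44 to 1.365, the former without WT baseline replicate 3).

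The number of chains called between genotypes at baseline was 0, and 1 with DESeq2. After IR it was 4, with 6 by DESeq2 (5 higher), 2 with limma on log2(FPKM + 0.1), 1 on log2(FPKM + 1) and 0 to 6 with 1 library left out (2 without Tet2-/- IR replicate 1, 0 without WT IR replicate 1, 6 without WT IR replicate 2, 1 without WT IR replicate 3). For IR in WT it was 0, with 3 by DESeq2, 2 with the replicate block, 1 with no fold change threshold and 0 to 1 with 1 library left out (1 without WT IR replicate 1). For IR in the Tet2-/- labelled kidneys it was 15, with 14 to 17 when 1 library was left out and 10 to 18 under the other alternatives. For the interaction it was 4, with 10 by DESeq2 (8 positive), 7 with the replicate block, 9 with the block within genotype (added after the data were seen) and 1 to 8 with 1 library left out (1 without Tet2-/- baseline replicate 1 or 3, 2 without WT IR replicate 1 or 3 or WT baseline replicate 2, and 8 without WT IR replicate 2). In the IR comparisons, and within genotype in the interaction, the block changed no call besides those of chains whose blocked values stand beside their results. Between genotypes same-numbered libraries shared only a number, with correlations of -0.174, -0.151 and 0.052 at baseline and 0.001, 0.207 and 0.305 after IR, and 1 and 3 of 6 libraries correlated best with their own number (6 of 6 in each IR comparison). There 0 chains were called with the block at baseline and 4 after IR, with Itga6 (1.09, adjusted p = 0.0423) in place of Itga2b (-1.01, adjusted p = 0.0707).

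The epithelial median was -0.59 at baseline (-0.81 to -0.033 with libraries left out, the latter without WT baseline replicates 2 and 3), -0.01 after IR (-0.30 to 1.29, with 0.84 with the replicate block and 0.71 over epithelial integrins alone), 0.07 for IR in WT (-0.33 to 0.66, with 0.59 without WT baseline replicate 2 and 0.66 without replicates 2 and 3), 1.47 for IR in the Tet2-/- labelled kidneys (1.31 to 2.13, the latter without Tet2-/- baseline replicate 1, with 1.90 over epithelial integrins alone and 0.97 with limma on log2(FPKM + 1)) and 1.44 for the interaction (1.18 to 2.05, the latter without WT IR replicate 2). The leukocyte median was 0.19 at baseline (-0.25 to 0.40, the former without WT baseline replicates 2 and 3), 1.14 after IR (0.41 to 1.499, with 2.08 among genes of at least 1 FPKM and 0.33 with limma on log2(FPKM + 1)), -0.20 for IR in WT (-0.62 to -0.02, the former without WT baseline replicates 2 and 3), 0.54 for IR in the Tet2-/- labelled kidneys (-0.30 to 0.97, and 2.52 among genes of at least 1 FPKM) and 0.87 for the interaction (0.16 to 1.25, and 0.25 with limma on log2(FPKM + 1)). At a minimum of 1 FPKM no leukocyte chain remained for the baseline and WT comparisons. Apart from the fewer chains under that filter, the cause was not tested.

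Library sizes alone in place of TMM moved the median of all genes by 0.10 between genotypes after IR, 0.23 for IR in the Tet2-/- labelled kidneys and 0.14 for the interaction, and the share of called genes that were higher went from 52.3% to 67.2% and from 41.3% to 61.7% in the last 2. The number of kidneys, 3 a group, limits the precision. Chains under 1 FPKM, the leukocyte chains above all, have wide errors, and a change that missed the threshold is not shown to be absent.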
